A study of Mus musculus with 30 samples.

Results

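The change in gene expression over the first 24 h of Wnt pathway stimulation was compared between wildtype and Nr6a1-/- cells differentiating towards neuromesodermal progenitors (NMPs), the bipotent cells of the posterior growth zone that give rise to spinal cord and paraxial mesoderm. Mouse Bruce4 embryonic stem cells (ESCs) were grown in N2B27 medium with FGF2 from d0, so that d2 cells had received FGF2 alone, and the Wnt agonist CHIR99021 was added on d2, so that d3 cells had received both factors for the last 24 h. The 12 libraries compared are 3 replicates each of d2 wildtype, d2 Nr6a1-/-, d3 wildtype and d3 Nr6a1-/-, out of 30 libraries in the series. The mutant cells were 1 CRISPR clone of the same ESC line with deletions in an internal exon of Nr6a1, so that loss of Nr6a1 and other properties of that clone cannot be told apart. Nothing in the labels says whether replicates were separate differentiations, so p-values measure the spread between these libraries. The members described are the 9986 genes, of 12149 tested and 54134 in the count table, for which at least 2 libraries of a group exceeded both 10 counts and 2 CPM (counts scaled to a common library total) at d2, and likewise at d3. A further 1418 genes reached that level at d2 or at d3 only and 745 at neither stage.

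Wnt ligands act by stabilising beta-catenin, which enters the nucleus and activates genes with Tcf/Lef partners. CHIR99021 has the same effect from inside the cell by inhibiting the kinase Gsk3, which marks beta-catenin for destruction. In the posterior embryo Wnt and FGF signals together keep NMPs, switch on T and Cdx genes and start the Hox sequence. Nr6a1, also called Gcnf, is an orphan nuclear receptor best known for silencing pluripotency genes such as Pou5f1 as the epiblast differentiates. The interaction reported here is the log2 change from d2 to d3 in Nr6a1-/- cells minus the same change in wildtype cells, so a value above 0 means a larger rise or a smaller fall without Nr6a1.

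Totals were 1997344 to 3039826 counts per library (median 2436470.5), at which 3 counts, the limit that a count of 0 allows, are worth 0.987 to 1.5 CPM. Nr6a1 itself was counted at 83.5, 87.1 and 86.4 CPM in the d2 wildtype libraries and 88, 95.9 and 101 CPM in the d2 Nr6a1-/- libraries, and at 178, 186 and 167 CPM and 292, 256 and 314 CPM at d3. The libraries are primed at the poly(A) tail, outside the deleted exon, so these counts do not check the genotype. Nr6a1 rose in both genotypes and its interaction did not pass the test (0.55, SE 0.16, edgeR FDR = 0.0662). That interaction was called under 4 of 22 other ways of processing, and the d3 groups did not overlap. The labelled stages matched their defining markers in both genotypes. The summed level of 6 epiblast markers was 2244 to 2281 CPM in wildtype and 3043 to 3128 CPM in Nr6a1-/- libraries at d2, and 186 to 204 CPM and 239 to 261 CPM at d3. The sum of 6 NMP markers (T, Sox2, Nkx1-2, Cdx2, Fgf8 and Wnt3a) went the other way, from 120 to 140 CPM in wildtype and 145 to 156 CPM in Nr6a1-/- libraries at d2 to 740 to 779 CPM and 982 to 1165 CPM at d3. The summed levels of the 4 defining markers of endoderm and of the 4 of neural cells were lower in Nr6a1-/- libraries at both stages. These sums are taken up beside the endoderm and neural genes.

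**Figure D1:**
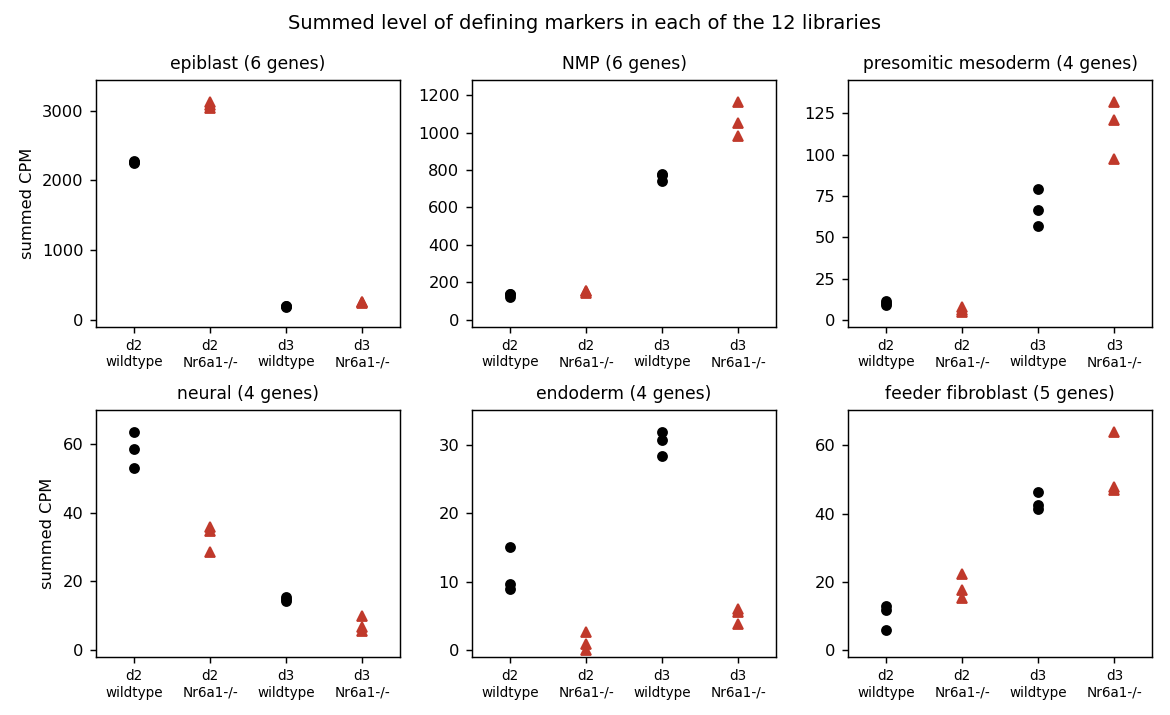
Summed CPM of the defining markers of 6 cell types (vertical axis, linear) in each of the 12 libraries, black circles for wildtype and red triangles for Nr6a1-/-. Epiblast markers were low and NMP markers high at d3 in both genotypes, and endoderm markers reached 28.3 to 31.9 CPM in d3 wildtype libraries against 3.82 to 6.01 CPM in d3 Nr6a1-/- libraries.

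The change from d2 to d3 was called different between genotypes for few of the genes that responded. In these 12 libraries the effect of CHIR99021 and of a further day in culture cannot be told apart. In wildtype cells 1830 members rose and 1845 fell from d2 to d3, where 19.6% of all tested genes rose and 17.8% fell. In Nr6a1-/- cells 1529 members rose and 1501 fell, where the shares over all tested genes were 16.6% and 15.1%. Across the 9986 members the fitted responses of the genotypes had a Pearson r of 0.7635 and a Spearman rho of 0.6887, which is a description across genes, which are not independent replicates. The least-squares slope of the Nr6a1-/- on the wildtype response was 0.753. Noise in the fitted wildtype responses lowers such a slope, so it does not by itself show a weaker response in Nr6a1-/- cells. The median size of the response was 0.3279 log2 units in wildtype and 0.2796 in Nr6a1-/- cells. The difference in response passed the test (edgeR's quasi-likelihood test, Benjamini-Hochberg FDR below 0.05 over all tested genes) for 264 members, 2.64% of them, against a background of 2.27% of all 12149 tested genes. The unadjusted p of the same test was below 0.05 for 1457 of the 9986 members and 1646 of the 12149 tested genes. A gene that was not called was therefore not shown to respond equally in both genotypes. The response was higher in Nr6a1-/- cells for 136 members, where 1.19% of all tested genes were higher, and lower for 128, where 1.09% were lower. The size of the called interactions ranged from 0.3532 to 3.987 log2 units with a median of 0.9498, and the median interaction of all members was 0.012.

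**Figure D2:**
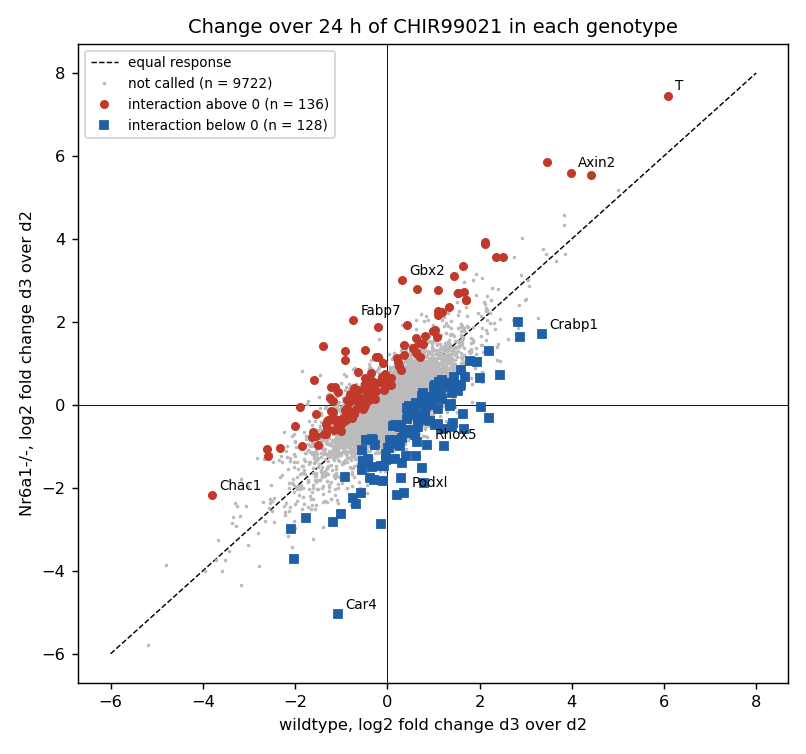
Log2 change from d2 to d3 in wildtype (horizontal axis) against Nr6a1-/- (vertical axis) for the 9986 members; the dashed line marks equal responses. Grey points scatter about the line, and the least-squares slope over all members was 0.753, a value that noise in the wildtype responses lowers. The 136 genes with a higher interaction (red circles) lie above the line and the 128 with a lower interaction (blue squares) below it, with Car4 the farthest.

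The called genes differed in how the gap between the responses arose. Of the 136 higher genes, 43 had fitted rises in both genotypes that were larger in Nr6a1-/- cells, 41 had fitted falls in both that were smaller in Nr6a1-/- cells, and 52 had a fitted fall in wildtype and a fitted rise in Nr6a1-/- cells, 14 of them with both responses past the test. Fabp7 was among these 14. Of the 128 lower genes, 39 had fitted rises that were smaller in Nr6a1-/- cells, 28 had fitted falls that were larger, and 61 had a fitted rise in wildtype and a fitted fall in Nr6a1-/- cells, 11 of them with both past the test, among them Rhox5, Flt1, Krt18 and Sparc. The wildtype response alone passed the test for 34 higher and 47 lower genes and the Nr6a1-/- response alone for 26 and 28, counts that are not by themselves a test of a difference.

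The stage at which the genotypes stood apart also varied. Before CHIR99021, at d2, Nr6a1-/- cells differed from wildtype with 146 members higher and 301 lower, where 1.35% of all tested genes were higher and 2.72% lower. At d3 the counts were 471 and 659, where 4.47% and 6.3% of all tested genes were called. These 4 groups are the ones the interaction is made of, so the counts describe the interaction and do not test it. For 87 of the 136 higher genes the genotypes did not differ past the test at d2 and Nr6a1-/- cells were higher at d3. For 34 the reverse held, with Nr6a1-/- cells lower at d2 and no called difference at d3, and 10 showed both. Axin2, Meis2 and Ccnd2 were lower in Nr6a1-/- cells before CHIR99021 was added. Of the 128 lower genes, 84 were called apart only at d3, 17 were higher in Nr6a1-/- cells at d2 and not apart at d3, and 6 showed both. Cgnl1 was of the second kind and Crabp1, Trh and Gpx2 of the first.

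**Figure D3:**
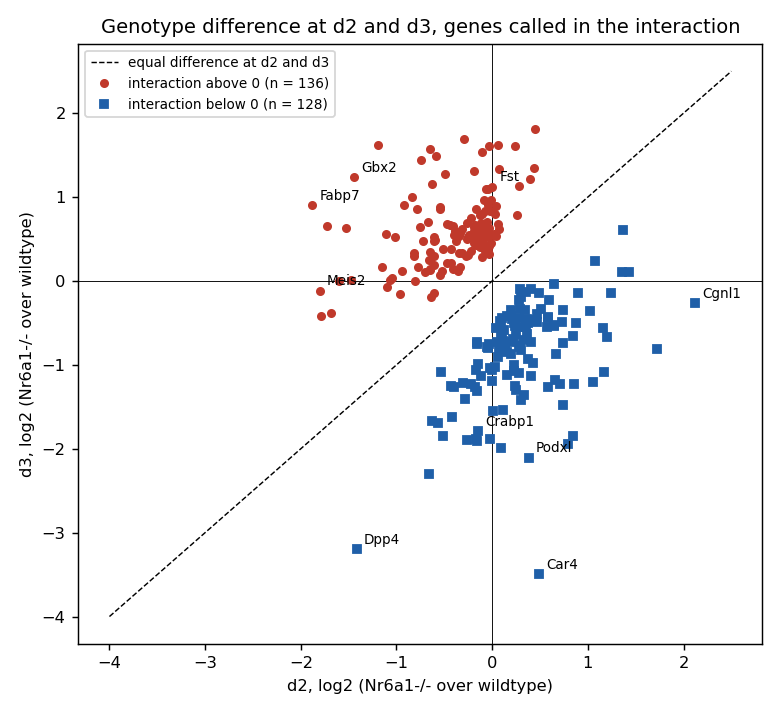
Log2 difference between Nr6a1-/- and wildtype at d2 (horizontal axis) and d3 (vertical axis) for the 264 called members; the dashed line marks an equal difference at both stages. Higher genes (red circles) lie mostly near 0 or left of 0 at d2 and above 0 at d3, while lower genes (blue squares) lie mostly near or right of 0 at d2 and below 0 at d3.

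The genes named first were the 12 members with the largest called interaction in each direction that had a mean of at least 10 CPM in a group and no overlap between genotypes at d2 or d3, leaving out predicted gene models. Gbx2 (chr1:89927956-89931179 in mm10, minus strand), a homeobox repressor of the posterior epiblast and hindbrain border, was counted at 48.1, 47.8 and 34.1 CPM at d2 and 57.4, 48.8 and 54.8 CPM at d3 in wildtype libraries. In Nr6a1-/- libraries it was counted at 15.1, 14.6 and 17.4 CPM at d2 and 119, 129 and 132 CPM at d3. Gbx2 was thus lower in every Nr6a1-/- library at d2 and higher in every one at d3, with no overlap at either stage. It rose 8.04-fold in Nr6a1-/- cells and its wildtype change of 1.25-fold did not pass the test (log2 interaction 2.68, SE 0.21, edgeR FDR = 7.27e-11). Fabp7, a brain fatty acid binding protein of neural progenitors, also changed places without overlap, from 21.9, 27.1 and 23.1 CPM to 14, 18.4 and 10.8 CPM in wildtype cells and from 4.71, 5.99 and 8.34 CPM to 27.3, 27.4 and 25.7 CPM in Nr6a1-/- cells (log2 interaction 2.78, SE 0.35, edgeR FDR = 1.76e-06).

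Meis2, a homeobox cofactor of Hox proteins, was counted at 10.9, 7.43 and 8.6 CPM in wildtype and 1.88, 2.62 and 3.03 CPM in Nr6a1-/- libraries at d2 and at 34.3, 29 and 22.8 CPM and 24.9, 23.1 and 30.5 CPM at d3. The Meis2 groups were separate at d2 and overlapped at d3, so its interaction (1.69, FDR = 0.00818) came with a difference at the start. Sall3, a spalt family zinc finger gene, was the other way round, with overlapping d2 groups of 7, 7.43 and 11 CPM and 6.12, 4.49 and 7.97 CPM and separate d3 groups of 43.4, 33.6 and 37.6 CPM and 74.3, 95.4 and 107 CPM in wildtype and Nr6a1-/- libraries (log2 interaction 1.77, SE 0.37, edgeR FDR = 0.0043). The Sall3 call was lost without d2 wildtype replicate 3 (FDR = 0.0803). Scn2b, a sodium channel subunit, rose 4.31-fold in wildtype and 15.2-fold in Nr6a1-/- cells (log2 interaction 1.82, FDR = 0.00128). The nuclear factor Nfib had an interaction of 1.79 (FDR = 0.00348) with a rise in Nr6a1-/- cells alone past the test. Porcn, the acyltransferase that lipidates Wnt ligands, and the ephrin receptor Epha1 stayed at 13.8 CPM or lower, and their calls (2.16, FDR = 0.0272, and 2.09, FDR = 0.0163) were lost under 7 and 6 of 22 other ways of processing.

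Vegfa and Rxrg fell past the test in wildtype cells alone. Vegfa, the endothelial growth factor, went from 17.5, 16.5 and 17.9 CPM to 6.76, 4.14 and 3.2 CPM in wildtype cells and from 8.94, 12 and 7.97 CPM to 8.43, 9.41 and 10.04 CPM in Nr6a1-/- cells. Vegfa fell 3.73-fold in wildtype and its change in Nr6a1-/- cells did not pass the test (log2 interaction 1.84, SE 0.42, edgeR FDR = 0.0093). The Vegfa call was lost under 2 of 22 other ways of processing. Rxrg, the retinoid X receptor gamma, was counted at 21, 11.7 and 16.5 CPM and then 7.24, 2.76 and 6.4 CPM in wildtype and at 11.3, 10.5 and 7.97 CPM and then 11.6, 21 and 12.6 CPM in Nr6a1-/- libraries. It fell 3.01-fold in wildtype cells and did not change past the test in Nr6a1-/- cells (log2 interaction 2.19, SE 0.43, edgeR FDR = 0.00213).

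**Figure D4:**
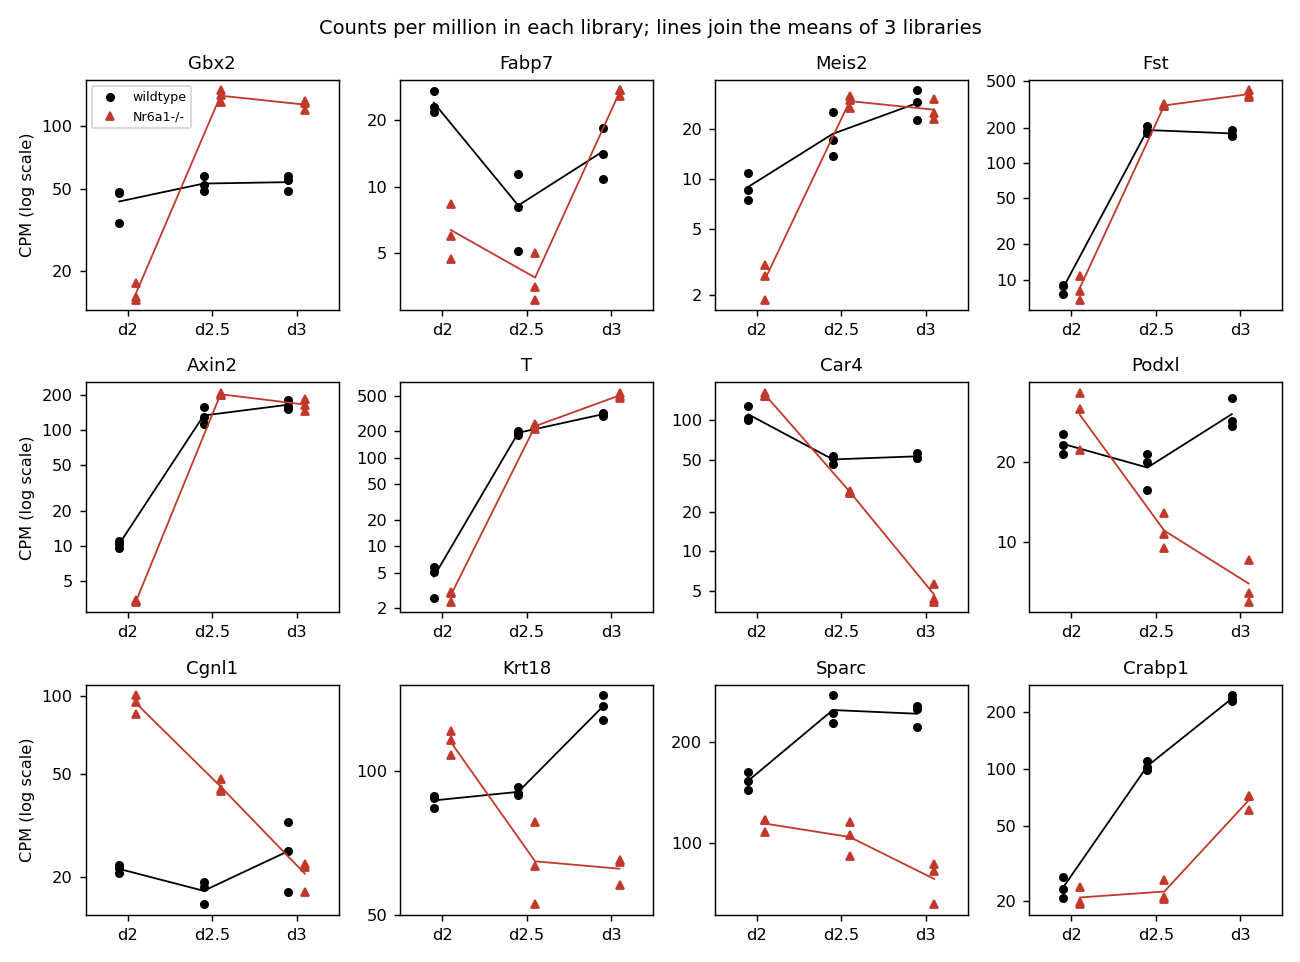
CPM in each library (vertical axis, log scale, its range set for each gene) at d2, d2.5 and d3 for 12 genes named in the text, black circles for wildtype and red triangles for Nr6a1-/-, with lines through the means of 3 libraries. Gbx2, Fabp7, Meis2 and Axin2 cross between d2 and d3 or meet at d3, Fst is higher in every Nr6a1-/- library at d3, and Car4, Podxl, Krt18, Sparc and Crabp1 are lower in every Nr6a1-/- library at d3.

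The largest lower interaction was that of Car4 (chr11:84957786-84966044), a membrane-anchored carbonic anhydrase. It was counted at 128, 100.4 and 104 CPM at d2 and 56, 51.6 and 51.6 CPM at d3 in wildtype libraries, a 2.09-fold fall. In Nr6a1-/- libraries it fell 33.1-fold, from 153, 163 and 153 CPM to 5.62, 4.28 and 4.09 CPM (log2 interaction -3.99, SE 0.23, edgeR FDR = 7.32e-15). Every Nr6a1-/- library was above every wildtype library at d2 and below every one at d3. Podxl, the apical sialomucin podocalyxin, was at 21.4, 25.5 and 23.1 CPM and 34.8, 28.5 and 27.2 CPM in wildtype and went from 22.1, 36.3 and 31.5 CPM to 6.42, 8.55 and 5.95 CPM in Nr6a1-/- libraries. The d2 groups overlapped and the d3 groups did not. Podxl fell 4.35-fold in Nr6a1-/- cells and its wildtype change did not pass the test (log2 interaction -2.49, SE 0.28, edgeR FDR = 2.57e-07). Cgnl1, the junction protein paracingulin, started higher in Nr6a1-/- libraries, at 101, 85.7 and 95.2 CPM against 22.3, 20.7 and 21.7 CPM, and ended at 22.5, 17.5 and 21.9 CPM against 32.8, 25.3 and 17.6 CPM with overlapping groups (log2 interaction -2.38, SE 0.25, edgeR FDR = 6.96e-08). Rhox5, an X-linked homeobox gene, rose from 87.9, 79.1 and 76 CPM to 156, 135 and 151 CPM in wildtype cells and fell from 137, 129.9 and 116 CPM to 65.4, 76.1 and 54.7 CPM in Nr6a1-/- cells (log2 interaction -1.83, SE 0.18, edgeR FDR = 1.57e-08). Its neighbour in the Rhox cluster, Rhox6, was the 1 member of the extraembryonic list and had an interaction of -2.69 (SE 0.47, FDR = 0.000465) at 9.65 CPM or lower.

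Flt1, a receptor of Vegfa, went from 4.81, 4.78 and 5.16 CPM to 8.21, 9.67 and 7.2 CPM in wildtype and from 9.89, 10.5 and 10.6 CPM to 4.42, 3.42 and 2.98 CPM in Nr6a1-/- libraries (log2 interaction -2.26, SE 0.39, edgeR FDR = 0.00035). The Flt1 groups changed places without overlap, and ligand and receptor had interactions of opposite sign. Gpx2, a glutathione peroxidase of epithelia, overlapped at d2, with 18.8, 24.4 and 19.3 CPM in wildtype and 23.1, 18.7 and 19.3 CPM in Nr6a1-/- libraries. At d3 it was counted at 37.7, 28.5 and 29.2 CPM in wildtype and 6.42, 11.1 and 8.18 CPM in Nr6a1-/- libraries, with no overlap (log2 interaction -1.86, SE 0.30, edgeR FDR = 0.000146). Fam84a likewise overlapped at d2 and was at 29, 23.9 and 20 CPM in wildtype against 5.62, 5.56 and 7.81 CPM in Nr6a1-/- libraries at d3 (log2 interaction -1.75, FDR = 0.00386). Nrg1, a ligand of ErbB receptors, had an interaction of -2.08 (FDR = 0.0265), a call lost under 9 of 21 other ways of processing. Nexmif (-2.74, FDR = 0.00925), a gene of neurite extension, the PQ-loop membrane protein gene Pqlc3 (-2.08, FDR = 0.00331) and the anoctamin Ano10 (-1.95, FDR = 0.00911) completed the 12 lower genes named by this rule together with Dpp4, and were counted at 21.2 CPM or lower on average in each of the 4 groups.

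Nr6a1 binds a direct repeat of AGGTCA with no spacer, and both its extended site TCAAGGTCA and the core AAGGTCA, which the longer motif contains, were looked up on both strands of RefSeq promoters (GRCm38.p6, 250 bases before to 50 after a gene's start). Of the called genes, promoters of 91 higher and 105 lower ones were looked up. The other called genes were either absent from the promoter table or left out of the lookup, so nothing is said about their promoters. TCAAGGTCA was in 0 of the 91 and 0 of the 105. It was in 0.261% of the promoters looked up for tested genes and 0.466% of all promoters looked up. The core AAGGTCA was in 3 of 91 (3.3%) and 9 of 105 (8.57%), against 3.69% of tested genes and 5.38% of all genes with a promoter looked up. Among the named genes with the largest interactions whose promoters were looked up, Rxrg and Gpx2 had the core. Their windows are shown, with AAGGTCA in capitals, so that the match can be seen.
Rxrg: atcggggttgaAAGGTCAgctgaaagcttc
Gpx2: ccagagccataAAGGTCAagtggggaggaa
The Rxrg window is chr1:167618165-167618194 on the plus strand, with the most upstream base of the motif 89 bases before the gene's start. The Gpx2 window is chr12:76795671-76795700 on the plus strand, opposite to the gene, with the most upstream base of the motif 134 bases before the start. A match is a description of letters in a window and not a binding site.

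The same genes were followed in libraries outside the interaction's contrast, after 12 h (d2.5) and 48 h (d4) of CHIR99021. Those libraries were part of the same fit and shared its filter and estimate of the spread, so they are not an independent check. At d2.5, the genotypes differed with 302 members higher and 400 lower without Nr6a1, where 2.86% of all tested genes were higher and 3.59% lower. That total of 702 was 430 to 694 when 1 d2.5 library was left out, the lowest without wildtype replicate 1. Of the 136 genes with a higher interaction, 29 (21.3%) were higher in Nr6a1-/- cells at d2.5 and 17 (12.5%) lower, with a median difference of 0.131 log2 units. Of the 128 with a lower interaction, 6 (4.69%) were higher and 33 (25.8%) lower, with a median of -0.209. At d4, 953 members were higher and 931 lower, where 9.7% and 9.18% of all tested genes were called. The d4 total of 1884 was 1181 to 2263 when 1 d4 library was left out, the lowest without Nr6a1-/- replicate 3. Of the higher genes 67 (49.3%) were then higher and 13 (9.56%) lower, with a median of 0.347 log2 units, and of the lower genes 4 (3.12%) were higher and 75 (58.6%) lower, with a median of -0.718. Over 13 other ways of processing at each stage, the d2.5 counts in the interaction's direction stayed between 19 and 31 higher and 22 and 34 lower, and the d4 counts between 58 and 69 and between 67 and 77. Without d2.5 wildtype replicate 1 the d2.5 count of higher genes was 19, and without d2.5 wildtype replicate 2 or d2.5 Nr6a1-/- replicate 2 that of lower genes was 22. In the labels 2 of the 6 d4 libraries carry the index of a d3 library, whose part in these counts was not tested.

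The timing differed from gene to gene. Gbx2 was already at 149, 141 and 129.8 CPM in Nr6a1-/- libraries at d2.5 against 57.6, 48.8 and 52.1 CPM in wildtype libraries (log2 difference 1.40, edgeR FDR = 9.56e-10). Car4 stood at 28.4, 28 and 29 CPM against 46.2, 53.4 and 51.1 CPM at d2.5 (-0.82, FDR = 0.000201) and the d4 difference was -6.11 log2 units (FDR = 3.11e-21). Crabp1 was -2.21 log2 units apart at d2.5 (FDR = 1.82e-15), -1.79 at d3 and 0.33 at d4 (FDR = 0.00454), so that it was lower in Nr6a1-/- cells at first and slightly higher at d4. Fabp7 was lower in Nr6a1-/- cells at d2 (-1.88), did not pass the test at d2.5 (-1.08, FDR = 0.066) and was higher at d3 (0.90) and d4 (4.24). Id2 and Chac1 were apart at d3 alone among these stages after CHIR99021 was added, with d4 differences of 0.06 (FDR = 0.796) and 0.18 (FDR = 0.68).

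Of the 20 genes listed as Wnt targets or feedback regulators, 13 were members, 2 had a higher interaction, none a lower one, and their median interaction was 0.188 log2 units against 0.012 for all members. Axin2, the feedback inhibitor of beta-catenin that reads out canonical Wnt signalling, was counted at 10.5, 11.2 and 9.63 CPM in wildtype and 3.3, 3.37 and 3.41 CPM in Nr6a1-/- libraries at d2. At d3 it was counted at 180.1, 152 and 162 CPM in wildtype and 147, 163 and 186 CPM in Nr6a1-/- libraries. The d2 groups were separate and the d3 groups overlapped, so that Axin2 rose 15.9-fold in wildtype and 48.4-fold in Nr6a1-/- cells to overlapping levels (log2 interaction 1.61, SE 0.30, edgeR FDR = 0.000798). At d2.5 it was 0.61 log2 units higher in Nr6a1-/- cells (FDR = 0.000124). T, the Brachyury gene of primitive streak and NMPs, went from 2.62, 5.84 and 5.16 CPM to 318, 312 and 296 CPM in wildtype and from 2.35, 3 and 3.03 CPM to 471, 500.3 and 541 CPM in Nr6a1-/- cells. The T groups did not overlap at d3 (log2 interaction 1.38, SE 0.36, edgeR FDR = 0.03), and this call was lost under 8 of 22 other ways of processing. The other 11 did not pass the test, among them the Wnt effectors Lef1 (0.28, FDR = 0.413) and Tcf7 (0.19, FDR = 0.776) and the cyclin Ccnd1 (0.16, FDR = 0.588). The 1 Wnt ligand or R-spondin among the members, Rspo1, had an interaction of -0.11 (FDR = 0.96).

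Other stage markers moved in part. Of the NMP list 4 genes were members, with a median of 0.877, and Gbx2 and T were the 2 called, while Sox2 did not pass the test (-0.27, FDR = 0.561). Another 11 NMP genes had enough counts at 1 stage and none was called, with Nkx1-2 at 133, 134 and 120.4 CPM in wildtype and 204, 202 and 254 CPM in Nr6a1-/- libraries at d3 (log2 interaction 1.17, FDR = 0.216) and Cdx2 at 90.3, 95.3 and 96.4 CPM and 109, 119 and 116 CPM (0.35, FDR = 0.891). Of 15 epiblast members 2 had a higher interaction and the list's median was 0.389. Tdgf1, the Nodal coreceptor Cripto, fell from 103, 116 and 107 CPM to 18.8, 13.3 and 20.8 CPM in wildtype cells and from 56, 51.3 and 53.9 CPM to 17.7, 36.3 and 23.1 CPM in Nr6a1-/- cells. Its starting level was lower in every Nr6a1-/- library and the d3 groups overlapped (log2 interaction 1.53, SE 0.31, edgeR FDR = 0.00276). Lefty1, a Nodal inhibitor, had an interaction of 0.79 (FDR = 0.0337) that 11 of 22 other ways of processing did not call. Pou5f1, the pluripotency gene that Nr6a1 is known to repress, was counted at 20.6, 17.5 and 19.3 CPM and then 7.72, 7.83 and 5.6 CPM in wildtype and at 24, 25.1 and 22.8 CPM and then 20.5, 19.7 and 21.9 CPM in Nr6a1-/- libraries. Pou5f1 fell in wildtype cells and its Nr6a1-/- change did not pass the test, while the interaction narrowly missed the threshold (log2 interaction 1.24, SE 0.35, edgeR FDR = 0.0518) and was called under 4 of 22 other ways of processing. Of 8 naive pluripotency members none was called, and their median was -0.503.

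Of 3 mesoderm members, with a median of 0.92, Dll1, the Notch ligand of presomitic mesoderm, was called. It went from 8.75, 6.9 and 8.6 CPM to 26.1, 25.3 and 16.8 CPM in wildtype and from 4.24, 4.12 and 3.03 CPM to 29.3, 38.5 and 31.6 CPM in Nr6a1-/- libraries (log2 interaction 1.66, SE 0.41, edgeR FDR = 0.0163). The Dll1 call was lost under 4 of 22 other ways of processing. The other 7 Notch pathway members, with receptors Notch2 (-0.35, FDR = 0.798) and Notch3 (0.31, FDR = 0.759) and the effector Hes1 (0.11, FDR = 0.8), did not pass the test, and the median of the 8 was 0.196. Presomitic mesoderm markers summed to 56.6 to 79.3 CPM in d3 wildtype and 97.3 to 132 CPM in d3 Nr6a1-/- libraries, and in bulk samples more cells of a type and more RNA per cell cannot be told apart. Of 4 neural members, with a median of -0.45, Crabp1 alone was called and it is described with the retinoid genes. The defining neural markers Sox1, Pax6, Irx3 and Olig2 summed to 53 to 63.5 CPM in wildtype and 28.5 to 35.7 CPM in Nr6a1-/- libraries at d2. At d3 they summed to 14.3 to 15.4 CPM and 5.61 to 9.93 CPM. The whole neural list summed to 217 to 257 CPM in wildtype and 306 to 316 CPM in Nr6a1-/- libraries at d2, and to 481 to 505 CPM and 385 to 438 CPM at d3.

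The endoderm list, which includes epithelial genes that other cells also use, had the lowest median interaction of the lists with at least 3 members. The lists were chosen with earlier results of these data known, so this rank is a description and not a test. Of its 10 members 5 had a lower interaction, none a higher one, and the median was -1.25. Krt18, a keratin of simple epithelia, rose from 87.9, 83.9 and 88.8 CPM to 137, 145 and 128 CPM in wildtype cells and fell from 116, 121 and 108 CPM to 65, 64.6 and 57.6 CPM in Nr6a1-/- cells. Nr6a1-/- libraries lay above all wildtype libraries at d2 and below them at d3 (log2 interaction -1.54, SE 0.15, edgeR FDR = 8e-09). Its partner Krt8 had an interaction of -1.12 (SE 0.21, FDR = 0.00107) and rose less in Nr6a1-/- cells. Trh, the thyrotropin releasing hormone gene, did not overlap between genotypes at either stage, with 48.5, 56.3 and 48.2 CPM and 65.2, 57.5 and 66 CPM at d2 and d3 in wildtype and 46.1, 43.8 and 45.9 CPM and 17.3, 17.5 and 16.4 CPM in Nr6a1-/- libraries (log2 interaction -1.72, SE 0.20, edgeR FDR = 2.78e-07). The tight junction gene Cldn6 fell in both genotypes, from 56.4, 49.4 and 57.1 CPM to 43.4, 31.3 and 50 CPM in wildtype and from 104, 92.9 and 105 CPM to 27.3, 30.8 and 30.1 CPM in Nr6a1-/- cells (log2 interaction -1.38, SE 0.21, edgeR FDR = 6.16e-05). Dpp4, a cell surface peptidase, rose in wildtype libraries from 12.7, 7.97 and 12.4 CPM to 28.5, 25.3 and 24.4 CPM and was at 4.71, 4.12 and 3.79 CPM and 3.61, 1.71 and 2.98 CPM in Nr6a1-/- libraries (log2 interaction -1.78, SE 0.40, edgeR FDR = 0.00911). The Dpp4 call was lost after thinning all libraries to the smallest total (FDR = 0.112).

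The summed level of the defining endoderm markers was lower in the Nr6a1-/- libraries at both stages. Sox17, Foxa2, Gata6 and Cer1 summed to 8.88 to 15 CPM in d2 wildtype and 0 to 2.6 CPM in d2 Nr6a1-/- libraries, and to 28.3 to 31.9 CPM and 3.82 to 6.01 CPM at d3. The median sum went from 9.68 to 30.7 CPM in wildtype and from 0.921 to 5.58 CPM in Nr6a1-/- libraries. The d2 Nr6a1-/- sum rests on few counts, so the size of its relative rise is uncertain. Cer1 was at 0 in all 12 libraries, and 4 of the 23 listed endoderm genes were. Over the 3 libraries of a group Sox17 had 35 and 140 counts at d2 and d3 in wildtype and 6 and 9 in Nr6a1-/- cells. Foxa2 had 6 and 32 counts in wildtype and 2 and 16 in Nr6a1-/- cells, and Gata6 had 39 and 33 and 1 and 13. Sox17 itself did not pass the test of the interaction (-1.51, FDR = 0.577). The whole endoderm list, which also holds the broadly expressed Epcam, summed to 805 to 909 CPM in d2 wildtype and 838 to 1003 CPM in d2 Nr6a1-/- libraries, and to 677 to 738 CPM in d3 wildtype and 445 to 490 CPM in d3 Nr6a1-/- libraries. The part of these markers in the lower interactions, Dpp4, Krt18 and Sparc included, was not tested. Markers of the feeder fibroblasts on which the ESCs had been kept, Col1a1, Col1a2, Col3a1, Lum and Postn, summed to 6.01 to 12.8 CPM in wildtype and 15.2 to 22.3 CPM in Nr6a1-/- libraries at d2 and to 41.3 to 46.3 CPM and 46.9 to 64 CPM at d3, with Lum at 0 in all 12 libraries. All 15 listed fibroblast genes summed to 45.1 to 58.1 CPM and 98 to 104 CPM at d2, and to 114 to 127 CPM and 126 to 144 CPM at d3, in wildtype and Nr6a1-/- libraries. None of 7 fibroblast members was called and their median was -0.514, and their part in other results was not tested.

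**Figure D5:**
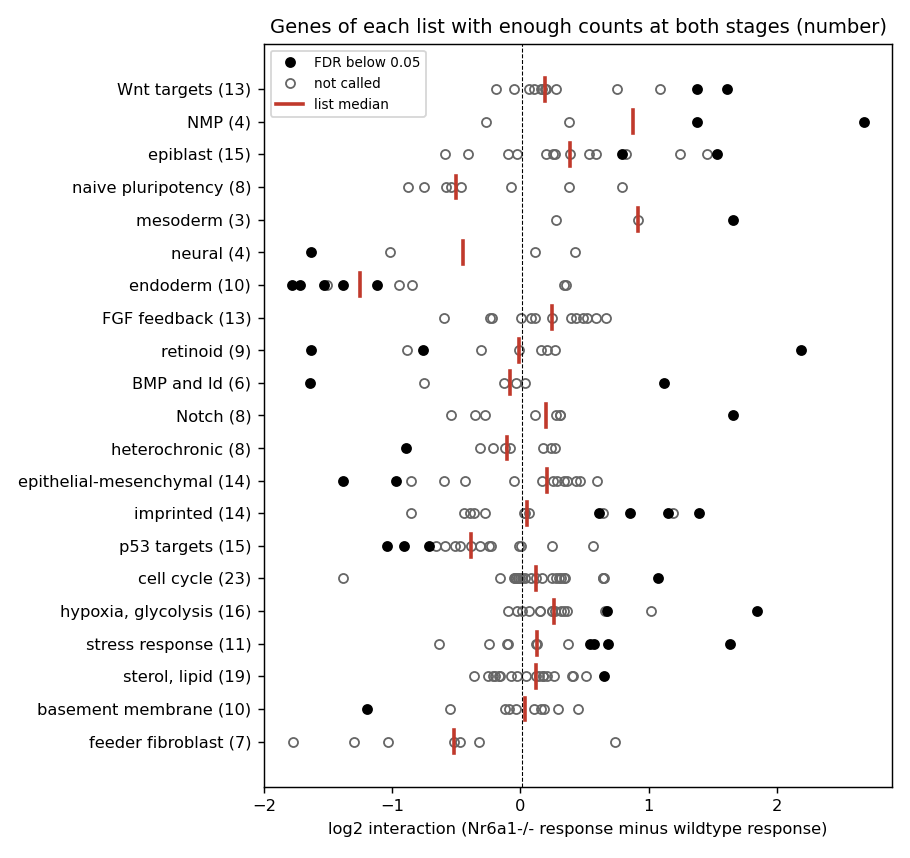
Log2 interaction (horizontal axis) of each member of the 21 gene lists with at least 3 members (rows, number of members in brackets), filled where the FDR was below 0.05; red bars mark list medians and the dashed line the median of all members. The endoderm list lies farthest to the left, with a median of -1.25, and called genes of the imprinted and stress lists lie to the right of 0. The lists were chosen with earlier results of these data known.

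Of 14 members of the epithelial to mesenchymal list, with a median of 0.21, the claudins Cldn6 and Cldn4 (-0.97, FDR = 0.0466, lost under 13 of 22 other ways of processing) were the 2 called, both lower, while the cadherins Cdh1 (0.25, FDR = 0.679) and Cdh2 (0.29, FDR = 0.684) did not pass the test. Of 10 basement membrane members, with a median of 0.0342, Sparc was called. Sparc, a collagen-binding glycoprotein of extracellular matrix, rose from 144, 153 and 163 CPM to 250.1, 221 and 255 CPM in wildtype cells and fell from 108, 118 and 117 CPM to 82.7, 65.9 and 86.7 CPM in Nr6a1-/- cells, with every Nr6a1-/- library below every wildtype library at both stages (log2 interaction -1.20, SE 0.16, edgeR FDR = 6.83e-06). The laminins and collagens of the list did not pass the test, among them Lamb1 (0.45, FDR = 0.155) and Col4a1 (0.11, FDR = 0.876).

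Retinoid genes were split. Of 9 members, with a median of -0.00915, the receptor Rxrg was higher, and Crabp1 and Crabp2, which bind retinoic acid in the cytoplasm, were lower. Crabp1 rose from 23.2, 26.6 and 20.6 CPM to 246, 234 and 228 CPM in wildtype cells and from 19.8, 19.1 and 23.5 CPM to 71.5, 60.7 and 72.2 CPM in Nr6a1-/- cells. The Crabp1 groups overlapped at d2 and were far apart at d3, with rises of 10.2-fold and 3.27-fold (log2 interaction -1.64, SE 0.18, edgeR FDR = 2.13e-07). Crabp2 was higher in Nr6a1-/- libraries at both stages, at 99.3, 101 and 101 CPM against 44.2, 32.9 and 39.2 CPM at d2 and 186, 155 and 143 CPM against 113, 96.7 and 108 CPM at d3. The Crabp2 gap was narrower at d3 than at d2 (log2 interaction -0.76, SE 0.18, edgeR FDR = 0.0133). That call was lost under 2 of 22 other ways of processing. The receptors Rara (-0.31, FDR = 0.744) and Rarg (0.21, FDR = 0.643) did not pass the test.

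Of 6 BMP and activin pathway members, with a median of -0.0843, Fst was higher and Id2 lower. Fst, the secreted activin and BMP antagonist follistatin, rose from 8.75, 9.03 and 7.57 CPM to 190.2, 175 and 172 CPM in wildtype and from 10.8, 6.74 and 7.97 CPM to 366, 380.1 and 420.3 CPM in Nr6a1-/- cells (log2 interaction 1.12, SE 0.25, edgeR FDR = 0.00822). The d2 groups overlapped and the d3 groups did not. In contrast, Id2, a helix-loop-helix inhibitor induced by BMP, fell in both genotypes, from 42.4, 41.4 and 43 CPM to 19.8, 22.1 and 21.6 CPM in wildtype and from 27.3, 26.6 and 26.6 CPM to 4.82, 3.85 and 4.09 CPM in Nr6a1-/- cells (log2 interaction -1.64, SE 0.30, edgeR FDR = 0.000715). Nr6a1-/- libraries were lower at both stages. None of 13 FGF feedback members was called, the closest to the threshold being the Sprouty related inhibitor Spred1 (0.67, FDR = 0.073), and their median was 0.247. Of the apelin and chemokine genes Apela, a ligand of the apelin receptor, was the 1 member and was higher. It fell from 127, 80.7 and 88.4 CPM to 76.3, 58 and 76 CPM in wildtype and rose from 102, 94 and 91.8 CPM to 157, 132 and 161 CPM in Nr6a1-/- cells, from overlapping groups at d2 to separate ones at d3 (log2 interaction 1.14, SE 0.24, edgeR FDR = 0.00366).

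Of 14 imprinted members 4 were called, all higher, with a list median of 0.0499. Phlda2, a growth-restraining gene expressed from the maternal allele, was counted at 139, 125 and 126 CPM and 103, 122 and 104 CPM in wildtype and rose from 86.6, 75.6 and 69.8 CPM to 177, 174 and 161 CPM in Nr6a1-/- libraries, with the groups separate in opposite order at d2 and d3 (log2 interaction 1.39, SE 0.15, edgeR FDR = 1.18e-07). Peg3, a paternally expressed zinc finger gene, started level and rose to 379.9, 412 and 389 CPM in wildtype and 725, 804 and 674 CPM in Nr6a1-/- libraries (log2 interaction 0.86, SE 0.14, edgeR FDR = 0.000147). Peg10 (1.15, FDR = 0.0129) and Grb10 (0.61, FDR = 0.00205) had lower d2 levels in Nr6a1-/- cells and no called difference at d3. The Peg10 call was lost without d2 wildtype replicate 3 or d2 Nr6a1-/- replicate 2 (FDR up to 0.0926). Usp29, which lies beside Peg3 and is expressed from the same allele, narrowly missed the threshold (1.19, FDR = 0.0575).

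Of 15 members of the p53 target list, 3 had a lower interaction, none a higher one, and the median was -0.388. Trp53inp1, a p53-induced nuclear protein, was counted at 56.8, 60.5 and 75.4 CPM in wildtype and 64, 64 and 69.4 CPM in Nr6a1-/- libraries at d2 and at 131, 151 and 158 CPM and 69.9, 65.4 and 81.5 CPM at d3. It rose in wildtype cells and not past the test in Nr6a1-/- cells (log2 interaction -1.04, SE 0.17, edgeR FDR = 0.000147). Ccng1, cyclin G1, showed the same pattern, with 348, 367 and 400.0 CPM in wildtype and 229, 243 and 193 CPM in Nr6a1-/- libraries at d3 (log2 interaction -0.72, SE 0.12, edgeR FDR = 0.000264). Perp, a desmosomal p53 target, rose in both genotypes and less in Nr6a1-/- cells (log2 interaction -0.91, SE 0.21, edgeR FDR = 0.00948). The Perp call was lost after thinning all libraries to the smallest total (FDR = 0.114). The cell cycle inhibitor Cdkn1a (0.24, FDR = 0.454), the p53 ligase Mdm2 (-0.23, FDR = 0.515) and the apoptosis genes Bax (0.00, FDR = 1) and Pmaip1 (0.57, FDR = 0.151) did not pass the test.

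Of 11 stress response members, with a median of 0.129, 4 were higher and none lower. Chac1, a glutathione-degrading enzyme induced through Atf4, fell from 74.3, 88.7 and 89.1 CPM to 9.17, 6.44 and 2.8 CPM in wildtype cells and from 75.8, 94.7 and 76.2 CPM to 20.1, 17.5 and 17.1 CPM in Nr6a1-/- cells. The d2 groups overlapped and the d3 groups did not (log2 interaction 1.63, SE 0.37, edgeR FDR = 0.00912). The Chac1 call was lost without d3 wildtype replicate 3 (FDR = 0.0858). Asns, asparagine synthetase (0.68, FDR = 0.000666), the endoplasmic reticulum chaperone Hspa5 (0.57, FDR = 0.00468) and Atf4 itself (0.55, FDR = 0.0218, lost under 8 of 22 other ways of processing) had smaller interactions, while Ddit3 (-0.10, FDR = 0.94) and Trib3 (0.13, FDR = 0.902) did not pass the test. Of 16 hypoxia and glycolysis members, with a median of 0.26, Hk2, hexokinase 2, and Vegfa were higher. Hk2 fell from 210.3, 208 and 219.5 CPM to 89.8, 103 and 112 CPM in wildtype and from 201, 211 and 209.8 CPM to 153, 159.9 and 162 CPM in Nr6a1-/- cells (log2 interaction 0.67, SE 0.13, edgeR FDR = 0.00128). Ldha (0.31, FDR = 0.226) and Slc2a1 (0.01, FDR = 0.992) did not pass the test. Of 19 sterol and lipid members, with a median of 0.12, the desaturase gene Scd2 was higher (0.65, FDR = 0.00409) and the other 18 were not called.

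Of 23 cell cycle members, with a median of 0.12, Ccnd2, cyclin D2, was the 1 called. It rose from 108, 158 and 124 CPM to 654, 702 and 831 CPM in wildtype and from 62.1, 53.9 and 69 CPM to 712, 729 and 758 CPM in Nr6a1-/- cells, from separate levels at d2 to overlapping ones at d3 (log2 interaction 1.07, SE 0.19, edgeR FDR = 0.000715). The proliferation markers Mki67 (-0.04, FDR = 0.972), Top2a (0.28, FDR = 0.161) and Pcna (0.04, FDR = 0.931) did not pass the test. Of 8 heterochronic members, with a median of -0.103, Hmga2, a chromatin protein repressed by let-7, was lower (-0.89, FDR = 0.0396, lost under 11 of 22 other ways of processing), and the RNA-binding genes Lin28a (0.17, FDR = 0.583) and Lin28b (-0.31, FDR = 0.484) were not called.

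Trunk and posterior Hox genes were at low counts at d2, and none of them had enough counts at both stages. Among genes with enough counts at 1 stage, 11 of 1418 were called, 7 higher and 4 lower, and their fitted fold changes depend on the prior count where a group is near 0. Hoxa5, a Hox gene of the neck and upper trunk, had 16 counts over the 3 d2 wildtype libraries and 0 over the 3 d2 Nr6a1-/- libraries, and 103 and 141 counts at d3. It was 6.75-fold higher at d3 in wildtype cells (95% counting interval 3.97 to 12.3) and at least 46.5-fold higher in Nr6a1-/- cells, taking 3 counts over the group as the floor (edgeR FDR of the interaction = 0.00063). Hotairm1, a long non-coding RNA of the Hoxa cluster, had 25 and 3 counts at d2 and 230 and 377 counts at d3 in wildtype and Nr6a1-/- cells, ratios of 9.65 (6.38 to 15.2) and 124 (42.2 to 605, FDR of the interaction = 0.000201). How strand entered the counting is not given, so reads of Hotairm1 and of antisense transcripts cannot be told apart. Hoxb13, the last gene of its cluster, had 1 and 2 counts at d2 and 0 and 193 counts at d3 in wildtype and Nr6a1-/- cells. Its interaction did not pass the test (FDR = 0.133). Hoxb9, with 2 and 2 counts at d2 and 212 and 270 at d3, and Hoxc8, with 1 and 3 at d2 and 214 and 83 at d3, did not pass it either (FDR = 0.972 and 0.393), and nor did any of the 9 trunk and 2 posterior Hox genes with enough counts at 1 stage.

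Apln, the gene of the ligand apelin, was counted at 3.94, 2.66 and 0.344 CPM in wildtype and 0.471, 1.87 and 3.41 CPM in Nr6a1-/- libraries at d2 and at 9.17, 8.29 and 5.6 CPM and 59.4, 61.1 and 71.8 CPM at d3. The d2 groups overlapped and every Nr6a1-/- library was far above wildtype at d3 (log2 interaction 3.15, SE 0.75, edgeR FDR = 0.0137). The Apln call was lost under 3 of 22 other ways of processing, with an FDR of 0.259 without d2 wildtype replicate 1. Zbtb16, a zinc finger repressor of limb and axial patterning, was counted at 0, 1.06 and 0.688 CPM and 0.941, 1.5 and 1.14 CPM in wildtype and Nr6a1-/- libraries at d2, and at 15, 14.3 and 14.4 CPM and 1.2, 1.71 and 0 CPM at d3. It rose in wildtype cells alone past the test (log2 interaction -4.92, SE 0.99, edgeR FDR = 0.00259). The Zbtb16 call was lost after thinning (FDR = 0.142). Eng, a coreceptor of TGF-beta ligands (-2.93, FDR = 0.0107), Rab3il1 (-3.72, FDR = 0.0351) and the Dickkopf family gene Dkk3 (-2.64, FDR = 0.0396) were lower, and Cnpy1 (3.03, FDR = 0.033) and the neural gene Olig1 (2.08, FDR = 0.0366) higher, at 14.1 CPM or lower in every d2 and d3 library. The Eng call was lost without d2 wildtype replicate 3 (FDR = 0.0542) and those of the other 4 genes under 6 to 11 of the other ways of processing. Only 18 of the 22 ways gave a value for Eng, Rab3il1 and Dkk3 and 21 for Cnpy1, and DESeq2 gave no FDR for these 4 genes.

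Genes on chromosome 8 were lower in the Nr6a1-/- clone at both stages, with a median difference of -0.376 log2 units at d2 and -0.367 at d3 over 564 members. Their share of all counts was 5.367 to 5.514% in d2 wildtype and 4.202 to 4.314% in d2 Nr6a1-/- libraries, and 5.265 to 5.325% and 4.09 to 4.098% at d3. Their median interaction was 0.0156, within the range of -0.028 to 0.0729 of the other chromosomes, and 10 were called higher and 10 lower, 3.55% of them against 1.6 to 4.77% on other chromosomes. Without chromosome 8 genes 240 members were called.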

How the data were processed

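RNA of mouse ESCs differentiated towards NMPs was sequenced as 3′ poly(A)-primed libraries with an index and a unique molecular identifier. Raw counts per gene for 30 libraries in 10 groups of 3 were deposited by the authors. The submitters' processing notes name STAR, mm10 and edgeR. The annotation, the counting tool and its strand setting, and whether identifiers were collapsed are not given in the sources used here, so intervals cover counting error only. The authors' tables of fold changes and FDRs were not used.

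The interaction and the other contrasts were tested with edgeR 4.0.16 (R 4.3.3, TMM normalisation, glmQLFit and glmQLFTest) in 1 fit of the 30 libraries with 20 residual degrees of freedom. A gene was tested if at least 2 libraries of some group exceeded both 10 counts and 2 CPM. Benjamini-Hochberg FDRs were taken over all 12149 genes tested, with a threshold of 0.05, separately for each contrast. The SE was derived from the log2 value and the F statistic. Levels of single genes in CPM were scaled to each library's total over the tested genes, multiplied by its TMM factor. Sums over gene lists and the CPM value of the counting limit were scaled to library totals without that factor. List sums and single-gene levels are therefore on slightly different scales. The scripts were tested on simulated counts. Counts of the other ways of processing run over 1 alternative at a time, namely DESeq2 1.42.0, other scaling, other filters, thinning to the smallest library total, a replicate block, the 12 d2 and d3 libraries alone, robust fitting, leaving out chromosome 8 and leaving out each of the 12 libraries.

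Named genes were the 12 largest called interactions each way by the rule given with them, the genes of the lists, and the 5 largest changes each way at 1 stage. The comparison, members, lists and rules were chosen with earlier results of these data known. Coordinates are GENCODE M21. Libraries with the same replicate number deviated together from their group means weakly at most, with 1 of 18 correlations above 0.1 (range -0.0729 to 0.144). The correlations for replicates 1 and 3 were all positive, from 0.0347 to 0.144. The labels give no shared batch. Replicate pairs differed by more than sampling noise, with a chi-square per gene of 1.46 to 3.55 over 12 pairs. Results for 2 of the named genes are not reported here.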

Additional observations from a re-analysis of the deposited data

Results flagged for a closer look

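The interaction term of edgeR's quasi-likelihood test called a difference between the genotypes' responses for 136 members with a higher and 128 with a lower response in Nr6a1-/- cells. Groups of 3 libraries are too small for an outlier test, so single libraries were not tested. The log2 interactions of the named genes past that test follow. Among the largest higher ones were Fabp7 2.78, Gbx2 2.68, Rxrg 2.19, Porcn 2.16, Epha1 2.09, Vegfa 1.84, Scn2b 1.82, Nfib 1.79, Sall3 1.77 and Meis2 1.69. Signalling and stage genes with a higher response were Axin2 1.61, T 1.38, Tdgf1 1.53, Lefty1 0.79, Dll1 1.66, Apela 1.14 and Fst 1.12. Imprinted, stress, metabolic and cell cycle genes with a higher response were Chac1 1.63, Phlda2 1.39, Peg10 1.15, Ccnd2 1.07, Peg3 0.86, Asns 0.68, Hk2 0.67, Scd2 0.65, Grb10 0.61, Hspa5 0.57 and Atf4 0.55.

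Among the largest lower ones were Car4 -3.99, Nexmif -2.74, Podxl -2.49, Cgnl1 -2.38, Flt1 -2.26, Pqlc3 -2.08, Nrg1 -2.08, Ano10 -1.95, Gpx2 -1.86, Rhox5 -1.83, Dpp4 -1.78 and Fam84a -1.75. Endoderm, epithelial, matrix and Rhox genes with a lower response were Rhox6 -2.69, Trh -1.72, Krt18 -1.54, Cldn6 -1.38, Sparc -1.20, Krt8 -1.12 and Cldn4 -0.97. Retinoid-binding, BMP, p53 and heterochronic genes with a lower response were Ccng1 -0.72, Crabp2 -0.76, Hmga2 -0.89, Perp -0.91, Trp53inp1 -1.04, Crabp1 -1.64 and Id2 -1.64. Among genes with enough counts at 1 stage, Hoxa5 5.77, Hotairm1 3.54, Apln 3.15, Cnpy1 3.03 and Olig1 2.08 had higher and Zbtb16 -4.92, Rab3il1 -3.72, Eng -2.93 and Dkk3 -2.64 lower fitted values, which depend on the prior count where a group is near 0.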

How the results depend on the processing

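No interaction of a called named gene, or of Nr6a1 or Pou5f1, reversed under any alternative run. The other named genes that were not called were not followed over the alternatives. The count of members called was 264, and it was 271 with DESeq2's size factors in edgeR, 255 with no factors, 253 without a filter (199 of them among the 264), 257 with a filter of 10 CPM, 217 by DESeq2 (210), 318 in a fit of the 12 d2 and d3 libraries (242), 307 with robust fitting, 240 without chromosome 8, 184 after thinning to the smallest library total (162) and 204 to 247 without 1 library (188 to 217). The higher-to-lower split was 136 to 128, and 127 to 144 with DESeq2's size factors. After thinning, 85 members were called lower in place of 128. Of genes with enough counts at 1 stage, 11 were called, against 26 with the stricter filter, 7 by DESeq2 and 5 after thinning. With a replicate block 293 members were called, 263 of them among the 264. The replicate numbers share no stated batch, and libraries with the same number deviated together weakly at most.

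The d2.5 genotype difference had 702 members called and 430 to 694 without 1 library, with 430 without wildtype replicate 1, 439 without wildtype replicate 2 and 438 without Nr6a1-/- replicate 1. At d4 1884 were called and 1181 to 2263 without 1 library, the lowest without Nr6a1-/- replicate 3. Thinning lost the calls of Porcn, Epha1, Vegfa, Nrg1, Dpp4, Apln, Cnpy1, Olig1, Zbtb16, Lefty1, Crabp2, Cldn4, Perp, Hmga2, Atf4, T and Dll1. Leaving out any of the 12 libraries lost calls, including some with FDRs below 0.01 in the full set of libraries such as those of Sall3, Chac1 and Vegfa. At d2 these were, for wildtype replicate 1, Porcn, Epha1, Nrg1, Apln, Cnpy1, Olig1, Rab3il1, Dkk3, Cldn4, Hmga2, Atf4 and Dll1, for wildtype replicate 2 Epha1, Apln, Rab3il1, Dkk3, Lefty1, Crabp2, Cldn4, Hmga2 and T, and for wildtype replicate 3 Porcn, Sall3, Nrg1, Olig1, Eng, Dkk3, Lefty1, Cldn4, Peg10, Hmga2, T and Dll1. For d2 Nr6a1-/- replicate 1 they were Nrg1, Cnpy1, Olig1, Dkk3, Cldn4, Hmga2, Atf4 and T, for replicate 2 Porcn, Nrg1, Cnpy1, Olig1, Rab3il1, Lefty1, Cldn4, Peg10 and T, and for replicate 3 Epha1, Rab3il1, Lefty1, Hmga2, Atf4, T and Dll1. For d3 wildtype replicate 1 they were Epha1, Olig1, Dkk3, Lefty1, Cldn4 and Hmga2, for replicate 2 Porcn, Epha1, Nrg1, Cnpy1, Olig1, Hmga2 and Atf4, and for replicate 3 Porcn, Vegfa, Nrg1, Cnpy1, Lefty1, Chac1, Cldn4 and Atf4. For d3 Nr6a1-/- replicate 1 they were Nrg1, Olig1, Rab3il1, Dkk3, Lefty1, Cldn4, Hmga2 and Atf4, for replicate 2 Cnpy1, Olig1, Rab3il1, Dkk3, Cldn4 and Hmga2, and for replicate 3 Porcn, Nrg1, Cnpy1, Dkk3 and Atf4. DESeq2 gave no FDR for Cnpy1, Rab3il1, Eng and Dkk3, which is not counted as a lost call. The highest FDR over all alternatives of the edgeR fit and DESeq2 was 0.498 for Cldn4, 0.16 for Hmga2, 0.149 for Lefty1, 0.119 for Olig1, 0.181 for Nrg1, 0.216 for Dkk3, 0.077 for Atf4, 0.199 for T, 0.192 for Cnpy1, 0.139 for Porcn, 0.141 for Epha1, 0.123 for Rab3il1, 0.171 for Dll1 and 0.259 for Apln. That of Pou5f1, not called with an FDR of 0.0518, ranged from 0.00815 to 0.176. Genes under about 10 CPM rest on few counts per library, so a gap within their spread was not detectable at this depth.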
